A study of Mus musculus with 4 samples.

Results

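The genes described here are 10 markers of white and brown fat cells, measured in mouse liver: Ucp1, Cidea, Cfd, Adipoq, Plin1, Fabp4, Lep, Retn, Car3 and Lipe. They were found as every non-control probe of the array that carries one of these gene names, which gave 19 of 56605 probes and 10 of 37074 gene names. Of these genes, 4 had 1 probe, 3 had 2 probes and 3 had 3 probes. The set was chosen by name as markers of fat, with the log2 ratios of AAI over corn oil on these same arrays known, that of Ucp1 in males among them, so every value below is a description and none carries a test.

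The study asked how aristolochic acid type I (AAI), a plant compound that damages the kidney, acts in mice of both sexes and what part the liver enzyme GNMT plays in it. Liver RNA came from wild-type C57BL/6 mice labelled as 6 weeks old. The paper gives an age for the mice as obtained, before treatment. The 4 groups were females injected intraperitoneally with 5 mg/kg/day AAI, males injected with 2 mg/kg/day AAI, and females and males given corn oil, the vehicle. Treatment ran 5 days per week for 3 weeks. Equal amounts of RNA from 5 mice of a group were pooled and hybridized to 1 single-colour array, so the data hold no spread between mice and do not show how many of the 5 mice carried a signal. AAI-treated females and males received different doses, and dose and sex cannot be told apart between these groups.

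White fat cells store triglyceride in 1 large droplet coated by perilipin, release it through a chain of lipases under adrenergic control, and secrete hormones such as leptin, adiponectin, resistin and the complement protease adipsin. Brown fat cells burn fatty acids for heat by means of UCP1, an uncoupling protein of the inner mitochondrial membrane that is the defining marker of thermogenic fat. Liver tissue holds few fat cells, but hepatocytes also transcribe Car3.

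The sequences read by the array are shown for 5 markers, because a signal is only as specific as its probe and because these genes include the largest male increase (Ucp1), secreted fat hormones that were higher (Adipoq, Retn), a lipid carrier that was higher in males alone at 2-fold (Fabp4) and a hormone that was not (Lep). Each probe is 60 bases of the transcript, written in its sense direction, with no letters singled out.
Ucp1 probe: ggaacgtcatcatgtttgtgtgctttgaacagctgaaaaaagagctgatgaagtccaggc
Adipoq probe: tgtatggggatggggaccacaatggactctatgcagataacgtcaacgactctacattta
Retn probe: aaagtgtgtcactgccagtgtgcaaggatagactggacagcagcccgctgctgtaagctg
Fabp4 probe: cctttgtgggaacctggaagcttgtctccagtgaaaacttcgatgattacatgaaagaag
Lep probe: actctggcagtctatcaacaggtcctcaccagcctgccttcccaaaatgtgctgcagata
In build mm9 of the mouse genome, on which the array design is annotated, the Ucp1 probe (NM_009463) lies at chr8:85821788-85821847, the Adipoq probe (NM_009605) at chr16:23157576-23157635, this Retn probe (NM_001204959) at chr8:3657312-3657371 and the Lep probe (NM_008493) at chr6:29020910-29020969, all on the forward strand. The Fabp4 probe shown (NM_024406) lies at chr3:10208442-10208501 on the reverse strand. Each carries the accession of a RefSeq transcript, and the exon it lies in was not looked up, since no mm9 annotation was used here.

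Signals are given as log2 of the array intensity after quantile normalization over the 4 arrays, and each log2 ratio sets the AAI pool of a sex against its corn oil pool. A gene stands by its brightest probe, and is counted as higher or lower at a ratio of 2-fold. A probe that the scanner did not mark as well above background has no measured level, and a bound takes the place of its ratio where the other array had a signal. The lowest signals well above background were 4.35 in the female corn oil pool, 3.81 in the female AAI pool, 4.29 in the male corn oil pool and 4.70 in the male AAI pool. The only measure of error is technical, namely the SD between log2 ratios of different probes for 1 gene, with a median of 0.25 in females over 9128 genes and 0.24 in males over 8618 genes. On each array 74.7% to 81.5% of all probes passed the scanner's background mark. No spot of the fat marker genes was marked as an outlier, saturated or replaced by the scanner software, and 15 of their 19 probes passed that mark on all 4 arrays. The liver label was checked against its markers: 15 of 15 liver markers, Alb and Ttr among them, were well above background on every array, and 0 of 15 differed by 2-fold between AAI and corn oil in either sex. Several are among the brightest signals, where quantile normalization sets values by rank, and Alb had 19.12 in both female pools and in corn oil-treated males. A modest change in liver RNA need not show in these markers.

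In AAI-treated males, 6 of 10 fat marker genes were at least 2-fold higher than in corn oil-treated males (Ucp1, Cidea, Cfd, Adipoq, Fabp4 and Retn) and 2 were at least 2-fold lower (Car3 and Lipe). Over all 30539 genes compared in males, 3.51% were higher and 4.59% lower by the same rule. In females, 9 of the 10 genes could be compared, 3 were higher (Cfd, Adipoq and Retn) and 0 lower, against 1.37% higher and 3.09% lower of 31682 genes. With normexp background correction Cfd alone stayed higher in females, with Adipoq at a log2 ratio of 0.29 and Retn at 0.61, and with the mean of all probes of a gene Car3 was lower, at -1.28. Since the set was chosen with these comparisons known, nothing is read from its counts beside those percentages, and the difference between the sexes was not tested. The median log2 ratio of the members was 3.34 in males, where the median over all genes was 0.00318, and 0.26 in females, where it was 0.04. As these are values of whole liver pools, fewer or more cells of a type and less or more RNA per cell cannot be told apart.

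**Figure D1:**
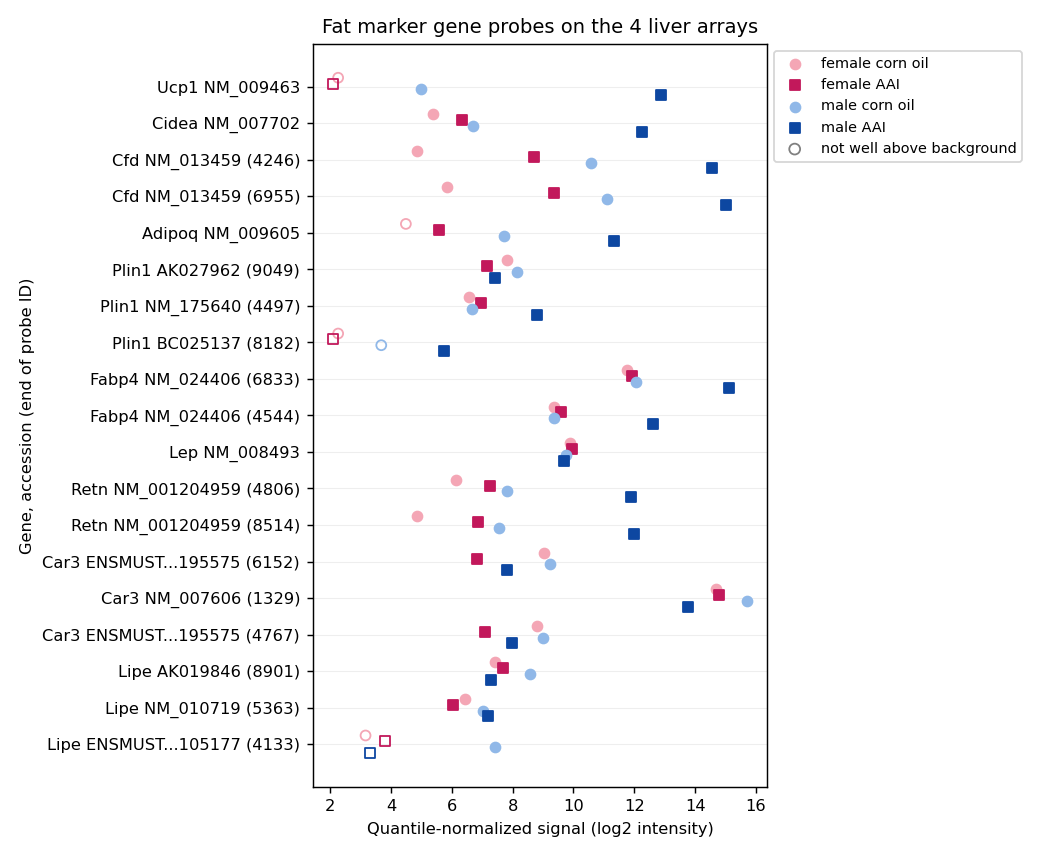
Quantile-normalized log2 signal (horizontal axis) of each of the 19 fat marker probes (rows, named by gene, accession and the last digits of the probe) on the 4 arrays, 1 pool of 5 mice each; circles are corn oil, squares AAI, and open symbols are not well above background. AAI-treated males stand to the right of the other 3 pools for Ucp1, Cidea, Cfd, Adipoq, Fabp4 and Retn, while the Lep signals lie within 9.70 to 9.96.

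Ucp1 and Cidea mark thermogenic fat. The Ucp1 signal was 2.26 in the female corn oil pool and 2.11 in the female AAI pool, neither of them well above background, against 4.98 in the male corn oil pool and 12.89 in the male AAI pool. Before normalization and on a linear scale, these intensities were 4.37, 4.04, 31.3 and 7270 in the same order. The male log2 ratio was 7.91 (240-fold) and ranked 1 of the 28433 genes well above background on both male arrays. Its size rests on a corn oil signal close to the lowest one above background, and it was 5.93 with normexp background correction. No ratio can be given for females, and the corn oil-treated males exceeded corn oil-treated females by at least 1.55-fold.

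Cidea encodes a lipid droplet protein of brown fat that promotes droplet fusion. Its signal was 5.37 with corn oil and 6.32 with AAI in females and 6.71 with corn oil and 12.25 with AAI in males. The female log2 ratio of 0.96 (1.94-fold) fell just short of the threshold, and the male ratio of 5.54 (46.6-fold) ranked 29 of 28433. A related droplet gene, Cidec, which is typical of white fat, had log2 ratios of 0.26 in females and 2.48 in males, and Cideb, the family member of hepatocytes, had 0.47 and -0.06.

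Other genes of brown fat were taken from a list of 29, of which 28 are on the array and 27 could be compared in each sex. Over all genes compared, 3.51% were higher and 4.59% lower in males, and 1.37% and 3.09% in females. Beside these shares, 10 genes of the list were higher and 1 was lower in males, and 4 were higher and 0 lower in females. The median log2 ratios of the list were 0.52 in males and -0.06 in females. The largest ratios were those of Cox8b, a subunit of cytochrome oxidase, with 5.47 in females and 5.84 in males, and Fabp3, a fatty acid carrier of oxidative tissue, with 5.66 and 5.75. Tbx1, a transcription factor linked to beige fat, was higher by a log2 bound of 2.12 in females and by 5.08 in males. The size of its male ratio rests on a corn oil signal of 4.58, close to the lowest one well above background. Cox8b, Fabp3 and the Cpt1b and Cox7a1 genes of the same list are also transcribed in muscle, and muscle markers were higher in both AAI-treated pools, as described below.

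Other members of that list are given with their log2 ratios in females and males, some of them chosen after their values were seen. Kcnk3, a potassium channel, had -0.51 and 2.53, and Ebf2, a transcription factor of brown fat precursors, had 0.73 and 1.07. Dio2, which activates thyroid hormone in brown fat, had log2 ratios of 0.32 in females and 1.57 in males. Ppargc1a, a coactivator of Ucp1 transcription, had -0.90 in females and 1.29 in males on its brightest probe, and -1.23 and 1.75 on the other. Prdm16, a determinant of brown fat identity, had -0.22 and 0.54, with signals of 4.46 to 5.01, all near the lowest well above background. Zic1, a marker of classical brown fat, was not well above background on any array. The paralogues of Ucp1 did not share its male value: Ucp2 had log2 ratios of -0.64 in females and 0.40 in males, and Ucp3 had -0.64 and 0.11. Elovl3, a fatty acid elongase of brown fat and also of male mouse liver, had signals of 7.69 and 6.89 in females and 13.58 and 7.87 in males, and its male log2 ratio of -5.71 (52.3-fold lower) ran opposite to that of Ucp1.

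Cfd encodes adipsin, the protease that cleaves complement factor B and is secreted by fat cells. Its brighter probe (NM_013459, chr10:79355302-79355361 of mm9, forward strand) had a signal of 5.86 in the female corn oil pool, 9.37 in the female AAI pool, 11.10 in the male corn oil pool and 15.01 in the male AAI pool. The signal was thus lowest in the female corn oil pool and highest in the male AAI pool, with no measure of the spread between mice. The log2 ratios were 3.51 in females (11.4-fold, rank 26 of 29714 genes) and 3.91 in males (15.0-fold, rank 82 of 28433). A second probe that overlaps the first gave 3.87 and 3.98. Cfd was the fat marker gene with the largest measured difference between the corn oil pools, with males higher by 5.24 on the log2 scale (37.9-fold, rank 7 of 29111). Its complement partners did not differ by 2-fold: C3 had log2 ratios of 0.20 in females and 0.38 in males, and Cfb 0.23 and -0.35.

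Adipoq encodes adiponectin, a hormone made almost only by fat cells. Signals of 4.49 in the female corn oil pool, where it was not well above background, and 5.59 in the female AAI pool stood against 7.72 in the male corn oil pool and 11.34 in the male AAI pool. The log2 ratio was 3.63 in males (12.3-fold, rank 101), and AAI-treated females were at least 2.14-fold above their control, a bound that holds for this background correction. With normexp correction of the background, which raises the lowest signals, the female log2 ratio was 0.29 and the 2-fold call was lost. Corn oil-treated males were at least 9.36-fold above corn oil-treated females. The adiponectin receptors Adipor1 and Adipor2, which hepatocytes carry, had log2 ratios of 0.09 and -0.36 in females and 0.37 and -0.80 in males, and Cdh13, a further binding protein, had -0.36 and 0.09.

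Retn encodes resistin, which in mice is a fat cell hormone that opposes insulin action on the liver. The probe shown above gave signals of 6.14 and 7.27 in females and 7.82 and 11.89 in males, again in the order corn oil and AAI. These correspond to log2 ratios of 1.13 (2.18-fold) and 4.08 (16.9-fold, rank 69). The second Retn probe gave 4.86, 6.85, 7.55 and 11.98 in the same order, with log2 ratios of 2.00 and 4.42, so that the probes differed by more in females than in males. Cap1, a resistin receptor, had -0.37 in females and -0.18 in males.

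Lep, the gene of the satiety hormone leptin, differed from the other secreted factors. Its signal was 9.88 and 9.96 in females and 9.76 and 9.70 in males, a narrow range over the 4 pools. Lep had 1 probe, and no other could be set beside it. Its signal was as bright in the female corn oil pool, where Adipoq and Ucp1 were not well above background. Whether this probe reads leptin RNA in these livers was not tested. The log2 ratios of 0.08 and -0.06 were of opposite sign and both smaller than the SD between probes. The leptin receptor Lepr had -0.33 and 0.37 on its brightest probe, but further Lepr probes had -1.39 (NM_010704) and -1.13 (NM_001122899) in females, with 0.85 and 0.29 in males. Counted by brightest probes, over the whole list of adipokine receptors and binding partners, 0 of 10 genes were higher and 0 lower in either sex. The shares over all genes were 3.51% higher and 4.59% lower in males and 1.37% and 3.09% in females. This count depends on the probe for Tlr4 as well as Lepr: Tlr4 had 0.16 in females on its brightest probe and -1.49 on a RefSeq probe.

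**Figure D2:**
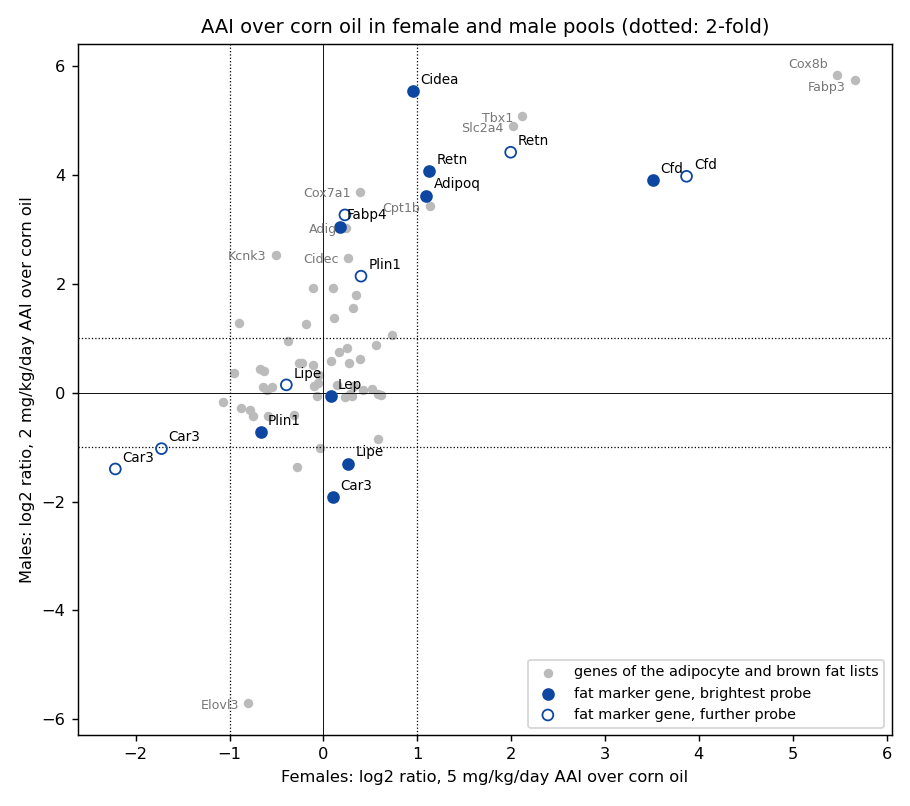
Log2 ratio of AAI over corn oil in females (horizontal axis) and males (vertical axis), 1 point for each fat marker probe compared in both sexes (blue, filled for the brightest probe of a gene) and for each gene of the adipocyte and brown fat lists (grey); dotted lines mark 2-fold and bounds, such as that of Adipoq in females, are drawn at their value. Cfd lies near the same value in both sexes at 3.51 and 3.91, Fabp4 at 0.17 and 3.06 and Cidea at 0.96 and 5.54 are past 2-fold in males and not in females, and Ucp1 is not drawn because it had no female ratio.

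Fabp4 encodes the fatty acid carrier of fat cells, which macrophages and endothelial cells also make. Its brighter probe had signals of 11.75 and 11.92 in females and 12.06 and 15.12 in males. Highest was the male AAI pool, with a log2 ratio of 3.06 (8.33-fold, rank 140) against 0.17 in females. The second probe, shown above, lies in another part of the transcript and gave 0.23 in females and 3.27 in males. Macrophage markers were lower in the same pools, 7 of 9 by 2-fold in females and 2 of 9 in males, and endothelial markers were lower for 1 of 9 in females and 0 of 9 in males. Over all genes compared, 3.09% were lower in females and 4.59% in males. The part of these cell types in the Fabp4 values was not tested. Among the other 8 fatty acid binding proteins, Fabp3 was higher in both sexes, Fabp7 had a log2 ratio of -1.12 in females, Fabp9 a log2 bound of -1.06 in males and Fabp5 had 0.91 and 0.43, while Fabp1, the carrier of hepatocytes, had -0.23 and -0.32.

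Plin1 encodes perilipin, which coats the droplet of fat cells and gates its lipolysis, and its 3 probes disagreed. The RefSeq probe (NM_175640, chr7:86866112-86866171 of mm9, reverse strand) had signals of 6.55 and 6.96 in females and 6.65 and 8.80 in males, log2 ratios of 0.40 and 2.15. The brightest probe, annotated to the clone AK027962, had 7.81 and 7.14 in females and 8.15 and 7.43 in males, log2 ratios of -0.67 and -0.72. The remaining probe (BC025137) passed the background mark in the male AAI pool alone, at 5.75, with a log2 bound of 1.46. By the brightest probe Plin1 differed by less than 2-fold in both sexes, and by the RefSeq probe it was 4.42-fold higher in AAI-treated males.

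Lipe encodes hormone-sensitive lipase, which acts on diglyceride in fat cells and on cholesterol esters in steroid-forming cells, and its probes also disagreed. The brightest one (clone AK019846) had signals of 7.43 and 7.69 in females and 8.58 and 7.28 in males, with log2 ratios of 0.26 and -1.30 (2.46-fold lower). With the RefSeq probe (NM_010719), the signals were 6.44, 6.04, 7.04 and 7.18, and the ratios -0.39 and 0.15. The remaining probe (ENSMUST00000105177) was well above background in corn oil-treated males alone, at 7.42, which gives a log2 bound of -2.72 in males. The male decrease counted above therefore belongs to probes that do not carry the RefSeq accession.

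The genes that work with perilipin and hormone-sensitive lipase were taken from lists of lipolysis and lipid droplet genes. Among 15 lipolysis genes on the array, 3 were higher and 2 lower in males, and 0 were higher and 1 lower of the 14 compared in females. Over all genes compared, 3.51% were higher and 4.59% lower in males, and 1.37% and 3.09% in females. The beta-adrenergic receptor gene Adrb1 was lower in both, with log2 ratios of -3.66 and -1.60, and Prkar2b, a regulatory subunit of protein kinase A, was higher in males with 2.41. Adora1 had 0.29 and 1.66 on its brightest probe, but 0.49 and -0.05 on another, and Ces1f had -0.31 and -1.43. Pnpla2, the lipase that acts before hormone-sensitive lipase, had 0.13 and 0.65, and its activator Abhd5, which perilipin binds, had -0.01 and 0.04. Of 13 lipid droplet genes, 0 were higher and 0 lower in either sex. Plin2, the perilipin of hepatocytes, had log2 ratios of -0.47 and -0.97 and Plin5 had -0.61 and -0.28.

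Car3 encodes carbonic anhydrase 3, abundant in fat cells, in slow muscle and in liver. Its RefSeq probe (NM_007606, chr3:14871781-14871840 of mm9, forward strand) had signals of 14.68 and 14.79 in females and 15.69 and 13.78 in males. AAI-treated males were the lowest pool and corn oil-treated males the highest. The log2 ratios were 0.11 in females and -1.91 in males (3.77-fold lower), and corn oil-treated males exceeded females by 2.01-fold. A pair of further probes of the transcript ENSMUST00000195575 gave 9.03, 6.81, 9.22 and 7.82 in the order of the groups above, and 8.81, 7.08, 8.99 and 7.96. Like the RefSeq probe they were lower in AAI-treated males, with log2 ratios of -1.40 and -1.03, but unlike it they were also lower in AAI-treated females, with -2.22 and -1.72. Of the 12 other carbonic anhydrases compared, 0 were higher and 0 lower in either sex. The shares over all genes were 3.51% higher and 4.59% lower in males and 1.37% and 3.09% in females. With shares this low, a count of 0 among 12 genes does not set the family apart from Car3.

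Promoter sequence is shown for 4 of these genes so that the 3 hormones and Ucp1 can be set beside their signals: Ucp1, Adipoq and Retn were higher in AAI-treated males and Lep was not. Each line is the 250 bases before the start of the gene on its own strand, from RefSeq on build GRCm38.p6, whose coordinates are not those of the mm9 probes. Capitals mark matches to 6 motifs searched on both strands, namely the TATA box (TATAAA), the box that reads CCAAT, the element of many nuclear receptors (AGGTCA), the core of the cAMP response element (TGACG), the C/EBP element (TTGCNNAA) and the GC box (GGGCGG).
Ucp1 promoter, chr8:83290098-83290347, forward strand: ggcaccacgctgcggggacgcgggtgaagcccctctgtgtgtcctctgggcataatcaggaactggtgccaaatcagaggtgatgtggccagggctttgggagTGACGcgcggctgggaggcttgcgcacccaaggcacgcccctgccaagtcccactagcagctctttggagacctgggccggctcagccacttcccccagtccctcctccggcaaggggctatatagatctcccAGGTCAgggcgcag
Adipoq promoter, chr16:23146286-23146535, forward strand: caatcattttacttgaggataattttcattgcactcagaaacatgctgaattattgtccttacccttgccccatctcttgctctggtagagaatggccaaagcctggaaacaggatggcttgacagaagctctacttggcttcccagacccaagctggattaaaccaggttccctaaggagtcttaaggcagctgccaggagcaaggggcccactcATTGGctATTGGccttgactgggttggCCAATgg
Retn promoter, chr8:3655520-3655769, forward strand: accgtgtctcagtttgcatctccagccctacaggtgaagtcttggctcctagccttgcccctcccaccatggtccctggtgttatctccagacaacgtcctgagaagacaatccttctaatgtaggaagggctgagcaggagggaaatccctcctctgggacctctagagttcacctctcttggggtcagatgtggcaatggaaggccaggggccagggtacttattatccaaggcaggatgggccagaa
Lep promoter, chr6:29059971-29060220, forward strand: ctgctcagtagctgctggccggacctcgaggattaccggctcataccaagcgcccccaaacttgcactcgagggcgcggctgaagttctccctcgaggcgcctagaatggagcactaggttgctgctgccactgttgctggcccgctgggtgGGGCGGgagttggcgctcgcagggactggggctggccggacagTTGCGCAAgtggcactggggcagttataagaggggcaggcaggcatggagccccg
RefSeq promoters were matched for 7 of the 10 genes, 8 promoters in all, and those of Cidea, Fabp4 and Car3 were not. The Ucp1 window held AGGTCA at positions -14 to -9 from the start and TGACG at positions -147 to -143, motifs found in 14.0% and 17.8% of all 32851 promoter windows. The Adipoq window held CCAAT 3 times, as ATTGG where it reads on the other strand, and 33.8% of windows hold it. In Lep, a GGGCGG (32.7% of windows) and a TTGCNNAA (9.56%) were found, and the latter was also in the Plin1 window. No motif of the 6 was found in the Retn or the Cfd window, and TATAAA was in none of the 8 (12.4% of windows). These are matches of letters and do not show that a factor binds there.

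Among other genes of fat cells, taken from a list of 29 that were all compared, 7 were higher and 2 lower in males and 1 was higher and 1 lower in females. The median log2 ratios were 0.33 and 0.11. Slc2a4, the insulin-regulated glucose transporter of fat and muscle, was higher in both, with 2.02 in females and 4.90 in males. Adig, a small protein of fat cell differentiation, had 0.25 and 3.04, Plin4 had 0.10 and 1.93, and lipoprotein lipase (Lpl) had 0.35 and 1.79. The 2 genes lower in males were Acsl1, with -0.28 and -1.36, and Aqp7, with -0.04 and -1.02 on its brightest probe. Another Aqp7 probe had -0.61 and 1.23. Pparg, a transcription factor needed to form fat cells, had 0.31 in females and -0.06 in males, Cebpa had 0.33 and 0.12, and Cebpb had -1.07 and -0.18. Adrb3, the beta-adrenergic receptor of fat cells, had -0.37 and 0.95 on its brightest probe, but -0.93 and 0.12 on the other. Over all 7 lists of fat-related genes, 120 genes apart from the 10 markers, 20 of the 113 compared in males were higher and 6 lower, and 5 of the 111 compared in females were higher and 3 lower. Their median log2 ratios were 0.12 in males and -0.01 in females. Beside these counts and those of the list of 29, 3.51% of all genes were higher and 4.59% lower in males. In females the shares over all genes were 1.37% and 3.09%.

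**Figure D3:**
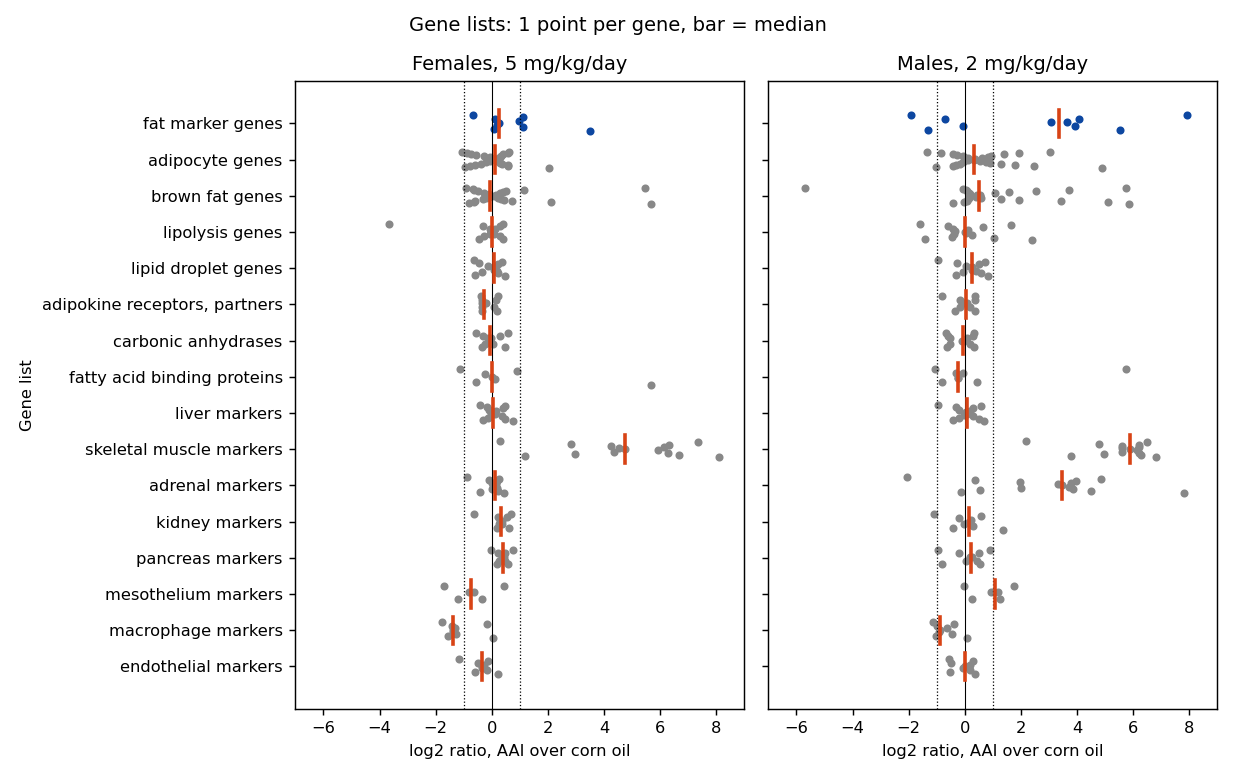
Log2 ratio of AAI over corn oil (horizontal axes) for each gene of 16 lists (rows, 1 point per gene), in females (left) and males (right); the orange bar is the median of a list and dotted lines mark 2-fold. The fat marker genes have medians of 0.26 and 3.34, the lists of muscle markers 4.76 and 5.87, and the adrenal markers 0.13 in females and 3.47 in males.

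The fat marker genes were ordered alike over the 4 pools in several cases. For Cidea, Cfd, Adipoq and Retn the signal was lowest in the female corn oil pool, next in the female AAI pool, then in the male corn oil pool and highest in the male AAI pool, and both probes of Cfd and of Retn gave this order. Among these genes the smallest step between neighbours was the 6.32 and 6.71 of Cidea. Fabp4 had the same order on its brighter probe, with 11.75, 11.92, 12.06 and 15.12. Its second probe did not, with 9.36, 9.59, 9.35 and 12.62. In the corn oil-treated pools, 6 of 10 fat marker genes were at least 2-fold higher in males (Cidea, Cfd, Adipoq, Retn, Car3 and Lipe) and 0 lower, beside 3.83% higher and 1.86% lower over all 30891 genes compared. Other probes of Car3 and Lipe differed less between these pools: the RefSeq probe of Lipe by 0.60 on the log2 scale, against 1.15 for the brightest, and the further Car3 probes by 0.19 and 0.18, against 1.01. The median log2 difference, males minus females, was 1.08 for the 10 genes and -0.03 for all genes. This comparison shares its arrays with the 2 comparisons of AAI, so a high control signal enters both.

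Markers of skeletal muscle and of the adrenal gland also differed between the pools. Between the corn oil pools, 3.83% of all genes compared were higher in males and 1.86% lower. Of 15 muscle markers, 14 were higher in AAI-treated females and 15 in AAI-treated males, and 11 were higher in corn oil-treated males than females. Their summed linear signal was 1922 in the female corn oil pool, 63201 in the female AAI pool, 7893 in the male corn oil pool and 503380 in the male AAI pool, so that the female AAI pool lay above the male corn oil pool, the reverse of Cidea, Cfd, Adipoq and Retn. In corn oil-treated females 14 of the 15 were well above background, and on the other arrays all 15 were. Adrenal markers were higher in AAI-treated males (11 of 15) and 1 was lower, whereas 0 of the 13 compared in females were higher or lower. Their sums were 4646 with corn oil and 4704 with AAI in females, and 8421 and 75632 in males. The female sums were close, and the sums rose over the pools in the order of Cidea, Cfd, Adipoq and Retn. Cyp11a1, Cyp11b1, Cyp21a1, Hsd3b1 and Chga had that order too, with Hsd3b1 at 6.23 and 6.46 in females and 10.16 and 14.11 in males. Single adrenal genes were not all ordered alike, and Star and Akr1b7 were among those that differed. Star had signals of 5.74 and 5.31 in females and 8.53 and 13.01 in males, and Akr1b7 had 9.46, 9.59, 8.47 and 13.32. Between 12 and 15 of these markers were well above background on each array. Markers of mesothelium, which lines the abdominal organs, were higher for 3 of 6 in males and lower for 2 of 6 in females. Kidney markers were higher for 1 gene and lower for 1 in males and for 0 in females, and 0 of 10 pancreas markers were higher or lower in either sex. Over all genes compared, 3.51% were higher and 4.59% lower in males, and 1.37% and 3.09% in females. The liver markers summed to between 3.49e+06 and 3.96e+06 on the 4 arrays. The part of these tissues in the fat marker values was not tested.

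The genes whose profile over the 4 pools was most like that of Ucp1 were sought among 32105 genes by the distance between centred log2 profiles, with signals under the lowest one well above background set to it. Nearest was Chgb, a secretory granule protein of chromaffin cells, at a distance of 0.16, with signals of 4.16, 3.81, 4.90 and 12.70. In females the signals of Ucp1 and Chgb were at or under that lowest signal, so this step made them equal there. Their distance therefore rests on the male pools, where the corn oil signals of both were near the lowest one well above background. The next were Gm13941 (0.63), Dach2 (1.03), 5730405A17Rik (1.49) and ENSMUST00000120949 (1.62), all past the background mark in the male AAI pool alone. Nearest to Adipoq were Retn (1.38), Star (1.45), Hsd3b1 (1.46), Scg2 (1.59) and Cidea (1.61), of which Retn and Cidea are fat marker genes and Star and Hsd3b1 belong to the adrenal list. With 4 pools, these distances only describe likeness.

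The ratios of some markers moved with the processing more than those of others. In males the log2 ratio of Ucp1 ranged from 5.93 to 8.04 over 8 other ways of processing, and in females that of Cfd ranged from 2.41 to 3.69, that of Adipoq from 0.29 to 1.26 and that of Retn from 0.61 to 1.56. The female Car3 ratio ranged from -1.28 to 0.11, since its probes disagreed. By contrast the male ratios of Cfd (3.74 to 3.98) and Fabp4 (3.03 to 3.18) hardly moved.

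**Figure D4:**
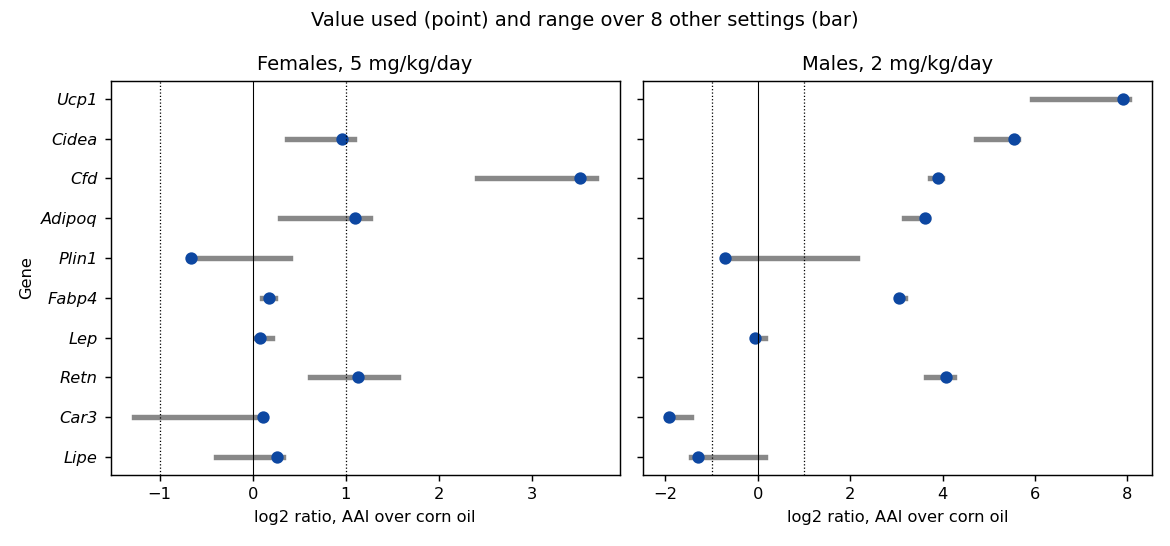
Log2 ratio of AAI over corn oil (horizontal axes) of each fat marker gene (rows) in females (left) and males (right); the point is the value used and the bar the range over 8 other ways of processing, and Ucp1 has no female value. Cidea, Cfd, Adipoq, Fabp4 and Retn stayed above 0 in both sexes under all of them, while the bars of Plin1 and Lipe in both sexes, of Car3 in females and of Lep in males crossed 0.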

How the data were processed

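Liver RNA was measured on 4 single-colour Agilent arrays (SurePrint G3 Mouse GE), 1 pool of 5 mice per group, with groups taken from the sample labels. Scans were read by the authors in Feature Extraction 10.5.1.1, and they deposited linear intensity values per spot, corrected for background and, on 3 of the 4 arrays, for multiplicative trends across the array. The array without the trend correction was that of the female AAI pool, so the female ratios set an uncorrected array against a corrected one. With this correction left out on all arrays, no marker ratio moved by as much as the SD between probes. The authors also deposited a table of quantile-normalized values. The arrays give no counts, and their number limits the precision.

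Control spots and outlier spots were left out, the spots of a probe averaged, and log2 of the deposited processed intensity was quantile normalized over the 4 arrays for the 56495 probes with a value on each (Python 3.11.15, numpy 2.4.6, pandas 2.3.3). A gene was represented by the probe of highest mean signal. Genes were counted at a log2 ratio of 1 in either direction when 1 or both arrays of the pair passed the background mark. Where one array was not, its value was replaced by the higher of its own and the lowest signal well above background on that array, which gives a bound. No test was run, since a group has 1 array. Named genes are all markers with all probes, up to 4 genes of each fat-related list by the size of the ratio, direct partners and paralogues, and the 5 nearest profiles; further genes of these lists were named after their values were seen. Members and lists were chosen with earlier results of these data known.

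Alternatives were scaling to the 75th percentile, normexp (limma 3.58.1 in R 4.3.3, offset 50), no trend correction, the authors' normalized values, no filter on dim probes, the mean of probes, a 3-fold threshold, leaving out replaced spots and, chosen after seeing the data, RefSeq probes alone. The ratio step was tested on simulated data.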

Additional observations from a re-analysis of the deposited data

Results flagged for a closer look

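Lep, Car3 and Lipe stood out because the female and male pools differed from their controls in opposite directions. The log2 ratios of Lep were 0.078 in females and -0.056 in males, both smaller than the SD between probes of a gene. Those of Car3 were 0.11 in females and -1.91 in males by the RefSeq probe, whereas the further Car3 probes were negative in both sexes. Those of Lipe were 0.26 in females and -1.30 in males by the brightest probe, and had the opposite signs by the RefSeq probe. With 1 pool per group and a different AAI dose in each sex, none of these differences was tested.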

How the results depend on the processing

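In males 6 fat marker genes were higher under every alternative except the RefSeq probes, which gave 7 with Plin1 at a log2 ratio of 2.15. In females the 3 higher genes became 1 with normexp background correction (Cfd, with Adipoq at 0.29 and Retn at 0.61), 1 at a 3-fold threshold and 4 with 75th percentile scaling (Cidea, 1.09), and the 0 lower genes became 1 with the mean of probes (Car3, -1.28). In males the 2 lower genes became 1 at 3-fold and 1 with RefSeq probes, where Lipe reversed from -1.30 to 0.15. The male log2 ratio of Ucp1 ranged from 5.93 with normexp to 8.04. The median of the markers stayed between 0.20 and 0.40 in females and between 3.16 and 3.42 in males, and the authors' normalized values moved no marker by more than the SD between probes. Over all genes, the counts of higher and lower genes, 434 and 978 in females and 1071 and 1402 in males, became 139 and 343, and 554 and 644, with normexp; 127 and 225, and 471 and 511, at 3-fold; 1078 and 1433, and 1792 and 2239, with no filter; and 273 and 609, and 764 and 662, with RefSeq probes, where fewer genes were compared. Lower genes were 69.3% of those called in females, and 54.5% with 75th percentile scaling; in males they were 56.7%, and 46.4% with RefSeq probes. The cause of these shifts was not tested. No paired analysis was possible because each group is 1 array. Nor can a pool be left out, so no value here has an error between mice, and signals near background, such as Adipoq and Ucp1 in females, carry bounds or no ratio.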
